A study of Mus musculus with 4 samples.

Results

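The genes described here are 10 imprinted genes that mouse embryos transcribe mainly from the paternal chromosome: Impact, Mest, Snrpn, Peg3, Usp29, Peg10, Sgce, Zrsr1, Plagl1 and Nnat. They were chosen by gene symbol, with earlier results of these data known, and all 10 were found among the 23235 symbols measured. RNA was sequenced from early blastocysts made by SCNT (somatic cell nuclear transfer, where the nucleus of a body cell is put into an oocyte without its own) or by in vitro fertilization (IVF), with 2 libraries per group. Each library held the RNA of 6 pooled embryos, lysed 96 hours after activation for SCNT or after fertilization for IVF. The SCNT nuclei were those of embryonic fibroblasts carrying 1 knockout allele of Xist, from Xist KO 129S1/SvImj mothers and CAST/EiJ fathers, placed in oocytes of B6D2F1/J (BDF1) mice. Per the file headers the SCNT columns also bear the name of the histone demethylase gene Kdm4d, and no label says whether the embryos received it. The IVF embryos came from Xist KO oocytes of the 129S1/Svj background and wild-type CAST/EiJ sperm, so the F1 background and an Xist KO allele occur in both groups. The labels do not tell whether replicate libraries derive from separate matings or sessions. The p-values therefore reflect the spread among these 4 libraries alone, possibly a technical one. With 2 libraries against 2, an exact two-sided permutation test cannot go below p = 0.333.

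Genomic imprinting restricts transcription of a gene to the allele from 1 parent. At these loci the oocyte lays down DNA methylation at a control region, often the promoter of the gene itself, and the methylated maternal allele stays silent while the unmethylated paternal allele is used. After fertilization the zinc finger protein ZFP57 binds the methylated copy and, with TRIM28 and the maintenance methyltransferase DNMT1, keeps the mark through the genome-wide demethylation of the early embryo. Many of these genes act on growth, placenta and brain in the mouse. The values here are totals over both alleles, so they do not show which allele was read. In pooled embryos, fewer cells of a type and less RNA per cell cannot be told apart.

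Promoter sequences are shown beside the values. They are short windows at start sites, and the control region of a locus may lie partly or wholly outside them. RefSeq windows of the GRCm38.p6 build, running from 250 bases before to 50 after a start site, were matched for 7 of the 10 genes (Mest, Snrpn, Peg3, Usp29, Zrsr1, Plagl1 and Nnat). Capitals mark the core that ZFP57 recognises, TGCCGC, or its reverse complement GCGGCA. Of genes with several windows, the one with the most CpG dinucleotides is shown (for Mest, the first of a pair that tie). Shown are the window that Peg3 shares with Usp29, those of Mest, Snrpn and Plagl1, whose genes had less RNA in SCNT, and that of Nnat, whose gene had more.
Peg3, chr7:6730370-6730669, minus strand: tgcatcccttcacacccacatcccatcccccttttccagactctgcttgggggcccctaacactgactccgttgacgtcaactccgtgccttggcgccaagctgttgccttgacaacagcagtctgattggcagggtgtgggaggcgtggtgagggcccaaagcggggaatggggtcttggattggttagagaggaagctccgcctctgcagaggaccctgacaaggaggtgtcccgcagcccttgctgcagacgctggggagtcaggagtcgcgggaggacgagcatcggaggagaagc
Mest, chr6:30737800-30738099, plus strand: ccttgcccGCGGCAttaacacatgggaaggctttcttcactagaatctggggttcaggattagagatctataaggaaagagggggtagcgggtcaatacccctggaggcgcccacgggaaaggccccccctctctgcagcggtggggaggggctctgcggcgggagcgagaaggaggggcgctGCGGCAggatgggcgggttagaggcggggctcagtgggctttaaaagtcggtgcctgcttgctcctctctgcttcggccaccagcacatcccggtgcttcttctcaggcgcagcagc
Snrpn, chr7:60005150-60005449, minus strand: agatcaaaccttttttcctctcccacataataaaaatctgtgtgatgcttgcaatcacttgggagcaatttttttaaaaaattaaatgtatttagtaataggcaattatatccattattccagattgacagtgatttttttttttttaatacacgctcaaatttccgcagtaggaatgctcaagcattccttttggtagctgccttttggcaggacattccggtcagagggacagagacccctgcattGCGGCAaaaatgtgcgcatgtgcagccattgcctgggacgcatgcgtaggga
Plagl1, chr10:13090582-13090881, plus strand: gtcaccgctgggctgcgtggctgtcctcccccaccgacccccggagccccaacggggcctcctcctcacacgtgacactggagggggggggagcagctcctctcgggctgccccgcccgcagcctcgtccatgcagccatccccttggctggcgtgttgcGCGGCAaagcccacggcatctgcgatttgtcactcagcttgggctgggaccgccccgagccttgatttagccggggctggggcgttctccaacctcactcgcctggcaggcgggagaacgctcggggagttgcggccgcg
Nnat, chr2:157559828-157560127, plus strand: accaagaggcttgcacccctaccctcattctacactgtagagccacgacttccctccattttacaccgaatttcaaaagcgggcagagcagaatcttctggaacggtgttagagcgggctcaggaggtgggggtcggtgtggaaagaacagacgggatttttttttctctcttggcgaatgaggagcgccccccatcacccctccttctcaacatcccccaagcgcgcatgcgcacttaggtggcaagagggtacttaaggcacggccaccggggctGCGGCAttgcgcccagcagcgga

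The core was present in a window of 4 of the 7 genes, with 2 matches in the Mest window and 1 each in those of Snrpn, Plagl1 and Nnat. It was absent from the windows of Peg3, Usp29 and Zrsr1. Among all 32851 promoter windows of this length, 11.6% held it on either strand. That share is per window, while the 4 of 7 counts genes, of which Mest had 3 windows and Snrpn 4. The binding motif of YY1, a zinc finger factor known at the Peg3 control region, was searched as CGCCATNTT on both strands. The YY1 motif was in none of these windows and in 2.38% of all windows. For either motif, absence from a window does not show absence from the control region. Matches of both motifs can share at most 3 bases, and a match describes letters only. The windows shown held 13 CpG for Peg3, 17 for Mest, 7 for Snrpn, 26 for Plagl1 and 17 for Nnat, against a median of 7 over all windows. The Peg3 and Usp29 windows lie on opposite strands and overlap by 263 bases, so the pair starts from a single stretch of DNA. Both genes were lower in SCNT. The Mest and Nnat windows held the same number of CpG, and Mest was lower and Nnat higher in SCNT. Any part of these sequences in the direction of the differences was not tested.

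Values are FPKM, fragments per kilobase of transcript scaled to the mapped total, a unit inferred for these files. FPKM summed to between 956773 and 976790 in the SCNT libraries and between 933167 and 985197 in the IVF libraries, and the number of reads is unknown, so no counting error can be given.

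The imprinted genes were mostly lower in SCNT. Since they were chosen with earlier results of these data known, the counts below describe these genes and test nothing. In 7 of the 10 genes both SCNT libraries lay under both IVF libraries: Impact, Mest, Snrpn, Peg3, Usp29, Peg10 and Plagl1. Such a separation was found for 14.6% of the 19748 genes above 0 in at least 1 library, and for 20.1% of the 3708 genes with a mean of 0.1 to 1 FPKM. Nnat was separated in the other direction, which 16.7% of genes above 0 were, while the groups overlapped for Sgce and Zrsr1. Peg3 with Usp29 and Peg10 with Sgce share a start region, so the 10 genes stand for 8 loci and the 7 lower genes for 6. The means of 4 genes (Impact, Mest, Usp29 and Plagl1) were also at least 2-fold lower in SCNT, and a separation of that size was found for 5.25% of genes above 0 and 10.9% of those between 0.1 and 1 FPKM. Of these 4, Usp29 alone had a mean over all libraries in that range. Of the 7, only Peg3, Usp29 and Peg10 did.

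**Figure D1:**
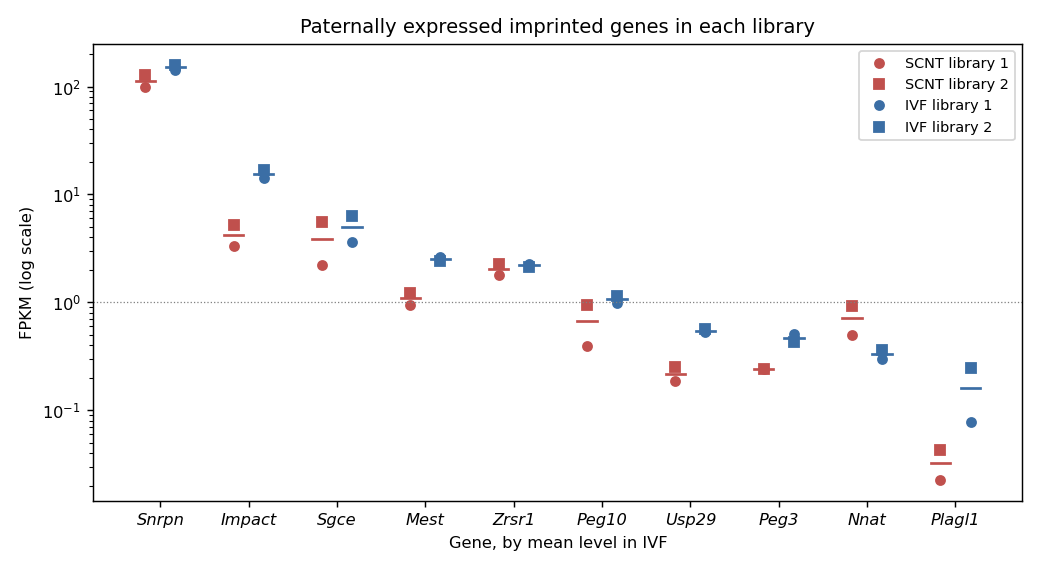
FPKM (log scale) of the 10 imprinted genes in each library, SCNT in red left of IVF in blue, with circles for library 1, squares for library 2 and bars for group means. The dotted line marks 1 FPKM, and Impact shows the widest gap among the genes above it, with 3.29 and 5.18 FPKM in SCNT and 14.1 and 16.9 FPKM in IVF.

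For testing, log2(FPKM + 1) of all 11039 genes with a mean of at least 1 FPKM was fitted with limma and p-values were adjusted over all of them, with 0.05 as the threshold. Only 5 of the 10 genes reached that level: Impact, Mest, Snrpn, Sgce and Zrsr1. Peg3, Usp29, Peg10, Plagl1 and Nnat were too low to be tested. None of the 5 passed, in a comparison in which 0.127% of genes did. At an unadjusted limma p under 0.05, 2 of the 5 were lower in SCNT (Impact and Mest) and none higher, where 2.84% of all genes tested were lower and 4.25% higher. The median difference was -0.42 over the 5 tested genes, against 0.01 over all genes tested; over the same 5 it was -0.25 without SCNT library 1, -0.85 without SCNT library 2 and -0.67 without IVF library 1. With no filter, the median over all 10 was -0.33, against 0.01 over all genes above 0. Differences are SCNT minus IVF on the log2(FPKM + 1) scale, which understates the change of low genes.

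Markers of the cell types of a blastocyst were read beside these genes, and all 24 were detected in every library. None passed with limma. Of 8 trophectoderm markers, 3 were higher in SCNT at an unadjusted p under 0.05 and none lower, against 4.25% and 2.84% of all genes tested. Elf5 had 17.9 and 9.50 FPKM in SCNT and 3.23 and 3.88 FPKM in IVF, Cdx2 had 36.6 and 29.5 FPKM in SCNT and 20.0 and 21.7 FPKM in IVF, and Eomes had 43.5 and 24.4 FPKM in SCNT and 18.8 and 14.2 FPKM in IVF (limma adjusted p of 0.320, 0.538 and 0.602). The other 5, among them Tfap2c and Tead4 with lower means in SCNT, overlapped. Summed FPKM of the 8 was 6004 and 3934 in SCNT and 4401 and 3604 in IVF.

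Of 8 primitive endoderm markers, 3 were likewise higher at an unadjusted p under 0.05 and none lower. The matrix protein gene Sparc had 63.1 and 80.1 FPKM in SCNT and 35.2 and 27.9 FPKM in IVF, the laminin gene Lama1 had 8.24 and 9.33 FPKM in SCNT and 5.21 and 4.94 FPKM in IVF, and the transcription factor gene Gata4 had 9.77 and 9.18 FPKM in SCNT and 6.59 and 5.09 FPKM in IVF (limma adjusted p of 0.320, 0.461 and 0.548). With Pdgfra, 4 of the 8 were higher without overlap and none lower, against 16.7% and 14.6% of genes above 0. The other 4 (Gata6, Sox17, Dab2 and Col4a1) overlapped and had lower means in SCNT. Gata6 had 102 and 74.9 FPKM in SCNT and 133 and 81.8 FPKM in IVF. Their sum, carried by a few abundant genes, was 373 and 320 FPKM in SCNT and 371 and 276 FPKM in IVF. None of 8 inner cell mass markers reached an unadjusted p under 0.05, and their sum was 382 and 413 FPKM in SCNT and 347 and 378 FPKM in IVF. Without overlap, 2 of these 8 (Tdgf1 and Gdf3) were higher and none lower, against the same 16.7% and 14.6%.

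Markers of fibroblasts, the donor cell type, summed over 10 genes to 12.4 and 6.18 FPKM in SCNT and 8.46 and 5.99 FPKM in IVF and went both ways. Vim and Prrx1 were higher in SCNT without overlap, while Twist1, with 0.521 and 0.658 FPKM in SCNT and 1.57 and 1.10 FPKM in IVF, and Thy1, with 0.374 and 0.133 FPKM in SCNT and 0.578 and 0.386 FPKM in IVF, were lower. The other 6 overlapped, among them the collagen gene Col1a1 with 3.38 and 0.193 FPKM in SCNT and 0.730 and 0.0846 FPKM in IVF. Summed over 8 genes each, cumulus and granulosa markers stayed at or below 0.617 FPKM and oocyte markers at or below 4.15 FPKM in every library, with Ptx3 and Amh listed at 0 throughout. The part of these markers in the values of the imprinted genes was not tested.

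Impact, on chromosome 18, encodes a protein that binds GCN1 and so holds back GCN2, the kinase that slows translation when amino acids run short. It had 3.29 and 5.18 FPKM in the SCNT libraries, against 14.1 and 16.9 FPKM in the IVF libraries. Both SCNT libraries were far under both IVF libraries, and the means of 4.24 ± 1.33 FPKM in SCNT and 15.5 ± 1.97 FPKM in IVF (SD, n = 2 each) gave a 3.65-fold lower level in SCNT. The difference of -1.67 ± 0.24 (SE) did not pass over all genes (limma adjusted p = 0.224, and 0.0671 to 0.464 under the alternatives tried). Of the 11039 genes tested, 84 were further down than Impact. Its place among all 23235 symbols was 7889 in SCNT and 4426 in IVF, counted from the most abundant. Of the coding genes on either side, Osbpl1a, an oxysterol-binding protein gene, had 10.2 and 8.38 FPKM in SCNT and 9.63 and 7.21 FPKM in IVF, which overlap, and the histamine receptor gene Hrh4 was listed at 0 in all libraries.

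The genes whose course over the 4 libraries was most like that of Impact were Fetub, Snora21, Xlr4b, Gstm6 and Bhmt2, by the root mean square difference of mean-centred log2(FPKM + 1). That measure was 0.02 for Fetub, which encodes the secreted protease inhibitor fetuin-B, and 0.11 to 0.18 for the others. The ratio of mean FPKM, SCNT over IVF, was 0.224 for Fetub and 0.274 for Impact. The ranking rests on 4 libraries and says nothing of shared function.

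Genes around GCN2 were read beside Impact. None of the 14 in the files passed in either direction with limma, and at an unadjusted p under 0.05 there were 2 higher and none lower, where 4.25% of all genes tested were higher and 2.84% lower. The kinase gene itself, Eif2ak4, had 5.78 and 4.28 FPKM in SCNT and 4.57 and 4.10 FPKM in IVF. Its partner Gcn1l1 had 11.8 and 9.68 FPKM in SCNT and 13.2 and 8.84 FPKM in IVF. Both overlapped between the groups. The smallest p-values belonged to 2 genes induced by this stress pathway. Ddit3, encoding the transcription factor CHOP, had 74.2 and 108 FPKM in SCNT and 22.0 and 38.2 FPKM in IVF (difference 1.59 ± 0.34 SE, limma adjusted p = 0.372). The pseudokinase gene Trib3 had 16.4 and 8.52 FPKM in SCNT and 3.70 and 4.37 FPKM in IVF (1.36 ± 0.32, limma adjusted p = 0.439). Atf4, the transcription factor gene between GCN2 and these targets, had 132 and 133 FPKM in SCNT and 104 and 116 FPKM in IVF, and Chac1, a glutathione-degrading enzyme gene, had 6.23 and 1.26 FPKM in SCNT and 0.888 and 1.27 FPKM in IVF, so that its SCNT mean rested on library 1. Without overlap, 3 of the 14 were higher (Ddit3, Trib3 and Atf4) and none lower, where 16.7% and 14.6% of genes above 0 were. The other 11 overlapped, among them Asns, Sesn2 and Ppp1r15a. Asns had 104 and 65.5 FPKM in SCNT and 88.4 and 76.5 FPKM in IVF. Any part of Impact in the values of these genes was not tested.

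Snrpn and Zrsr1 encode proteins of RNA splicing. Snrpn, whose product SmN is a spliceosome core protein best known from neurons, was the most abundant of the 10 genes in every library. It had 99.6 and 127 FPKM in SCNT and 143 and 159 FPKM in IVF. Both SCNT values were lower, though the gap between 127 FPKM in SCNT and 143 FPKM in IVF was smaller than the spread within SCNT, and the test gave -0.42 ± 0.21 (SE, limma adjusted p = 0.845). The closely related Sm protein gene Snrpb, which is not imprinted, had 539 and 579 FPKM in SCNT and 530 and 637 FPKM in IVF. Snrpn thus stood at 0.185 and 0.219 of the Snrpb level in SCNT and at 0.269 and 0.250 of it in IVF. Snurf, whose reading frame lies on the same transcripts as Snrpn, is listed on a row of its own with 4.65 and 12.6 FPKM in SCNT and 3.73 and 13.2 FPKM in IVF, so that it differed by library number and not by group. The sources used here do not say how reads were divided between Snrpn and Snurf.

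Zrsr1 is a retrogene copy of the X-linked Zrsr2 and encodes a relative of the splicing factor U2AF. It had 1.79 and 2.27 FPKM in SCNT and 2.29 and 2.11 FPKM in IVF, which overlap, with a difference of -0.08 ± 0.19 (SE, limma adjusted p = 0.9996). The difference turned to 0.033 without SCNT library 1. Zrsr2 had 10.8 and 17.0 FPKM in SCNT and 9.16 and 15.5 FPKM in IVF. Reads of the 2 copies can be confused. Zrsr1 also lies inside Commd1, which is transcribed from the other strand and had 158 and 236 FPKM in SCNT and 150 and 240 FPKM in IVF, so reads from the Commd1 region may be counted for Zrsr1 unless strand was used.

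Peg3 and Plagl1 encode zinc finger proteins, and Usp29 a protein of the ubiquitin-specific protease family. Peg3, which in mice affects growth and maternal care, had 0.243 and 0.241 FPKM in SCNT and 0.512 and 0.432 FPKM in IVF. Usp29 had 0.185 and 0.252 FPKM in SCNT and 0.534 and 0.562 FPKM in IVF. In each gene both SCNT values were well under both IVF values, 1.95-fold lower by the means for Peg3 and 2.51-fold for Usp29. The ratio of Usp29 to Peg3 was 0.764 and 1.05 in SCNT and 1.04 and 1.30 in IVF. Without the filter on low values the differences were -0.25 ± 0.06 (SE) for Peg3 and -0.35 ± 0.07 for Usp29, with limma adjusted p of 0.563 and 0.504. Zim3, another zinc finger gene of the cluster, partly overlaps Usp29 from the other strand. Zim3 had 0.828 and 0.837 FPKM in SCNT and 1.68 and 2.16 FPKM in IVF, and was picked after its values were seen. Reads from the overlap may be counted for either gene unless strand was used. The next coding gene past Usp29, the kinase gene Aurkc, had 11.4 and 7.97 FPKM in SCNT and 14.7 and 10.7 FPKM in IVF, which overlap.

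Plagl1, also named Zac1, encodes a transcription factor that restrains cell division. It was the least abundant of the 10 genes, with 0.0226 and 0.0426 FPKM in SCNT and 0.0773 and 0.244 FPKM in IVF. Its mean was 4.93-fold lower in SCNT, but the IVF libraries differed by more from each other than the lower of them did from SCNT, and the counting error of values this small is unknown. Its related genes were not separated: Plagl2 had 1.04 and 0.968 FPKM in SCNT and 1.23 and 0.759 FPKM in IVF, and Plag1 had 0.144 and 0.198 FPKM in SCNT and 0.231 and 0.131 FPKM in IVF.

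Mest, a putative hydrolase gene with a role in growth, had 0.951 and 1.23 FPKM in SCNT and 2.63 and 2.40 FPKM in IVF. The SCNT libraries were both under the IVF libraries, and the means were 1.09 ± 0.199 FPKM in SCNT and 2.51 ± 0.167 FPKM in IVF (SD, n = 2 each), 2.30-fold lower in SCNT. The difference was -0.75 ± 0.19 (SE, limma adjusted p = 0.467, and 0.175 to 0.99982 under the alternatives). Copg2, a vesicle coat protein gene that overlaps the end of Mest from the other strand, had 7.55 and 8.36 FPKM in SCNT and 7.52 and 10.9 FPKM in IVF and was not separated. Reads from their overlap may be counted for Mest unless strand was used.

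Nnat encodes neuronatin, a small protein of the endoplasmic reticulum membrane. It was the exception in direction, with 0.499 and 0.933 FPKM in SCNT and 0.295 and 0.365 FPKM in IVF. Both SCNT libraries were above both IVF libraries, with a ratio of means of 2.17 and a difference of 0.36 ± 0.15 without the filter (SE, limma adjusted p = 0.756). Nnat lies within Blcap, which is read from the other strand and had 9.68 and 6.82 FPKM in SCNT and 7.98 and 7.42 FPKM in IVF. Reads from the Blcap region may be counted for Nnat unless strand was used. Any part of Blcap reads in the Nnat values was not tested.

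Peg10 and Sgce are read in opposite directions from a shared start region. Peg10, which derives from a retrotransposon and is needed for the mouse placenta, had 0.395 and 0.949 FPKM in SCNT and 0.997 and 1.13 FPKM in IVF. The groups were separated only narrowly, by 0.949 FPKM in SCNT library 2 against 0.997 FPKM in IVF library 1, and the SCNT libraries were further apart from each other than that. The difference without the filter was -0.32 ± 0.20 (SE, limma adjusted p = 0.917). Sgce, the gene of epsilon-sarcoglycan, had 2.23 and 5.57 FPKM in SCNT and 3.59 and 6.35 FPKM in IVF, which overlap. Its values went by library number, and within each number SCNT was lower, at 0.622 of IVF for libraries 1 and 0.877 for libraries 2. The difference of -0.33 ± 0.42 (SE, limma adjusted p = 0.9996) turned to 0.18 without SCNT library 1 and to 0.0066 without IVF library 2. Of the genes further out, Casd1 beside Sgce had 1.84 and 2.50 FPKM in SCNT and 1.66 and 1.71 FPKM in IVF, and Ppp1r9a beside Peg10 had 1.44 and 1.86 FPKM in SCNT and 1.40 and 2.25 FPKM in IVF.

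**Figure D2:**
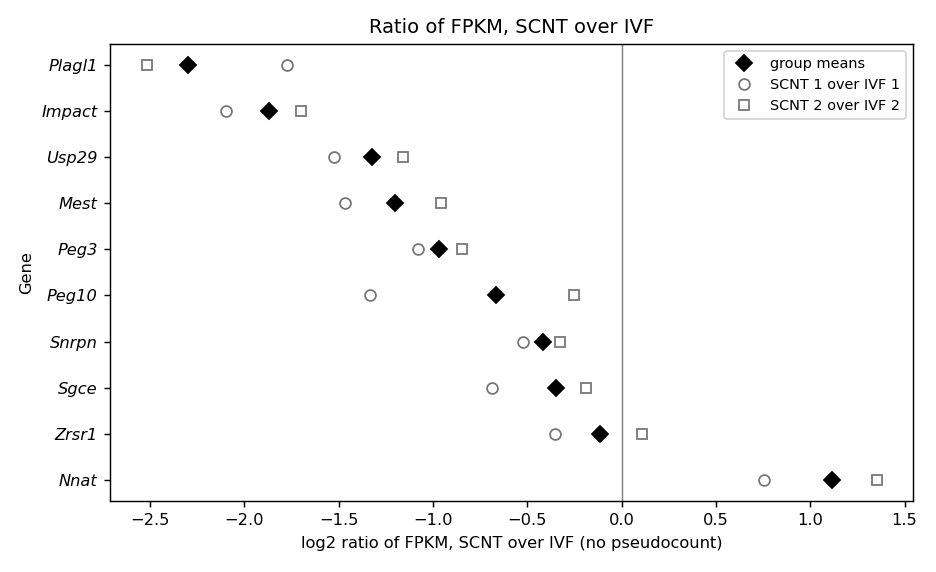
Ratio of FPKM, SCNT over IVF, on a log2 axis without pseudocount, for each of the 10 genes; diamonds are ratios of group means, circles and squares those of the libraries numbered 1 and 2. In 8 genes all 3 marks lie left of 0, Zrsr1 straddles it, and Nnat lies to the right.

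Taken by library number, 8 of the 10 genes were lower in SCNT for both numbers, as were 25.6% of genes above 0, with ratios to IVF between 0.234 and 0.697 for libraries 1 and between 0.175 and 0.877 for libraries 2. In 7 of those 8 genes the ratio was nearer to 1 for libraries 2, and Plagl1 was the exception, with 0.292 for libraries 1 and 0.175 for libraries 2. The order of levels was similar in both groups, with Snrpn first, then Impact and Sgce, and Plagl1 last. Neighbouring genes in the order did not overlap in IVF. In SCNT, Impact overlapped Sgce, Sgce overlapped Zrsr1, Nnat overlapped Peg10 and Peg3 overlapped Usp29. Mest came before Zrsr1 in IVF and after it in SCNT, and Nnat stood above Peg10, Peg3 and Usp29 in SCNT and below them in IVF.

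**Figure D3:**
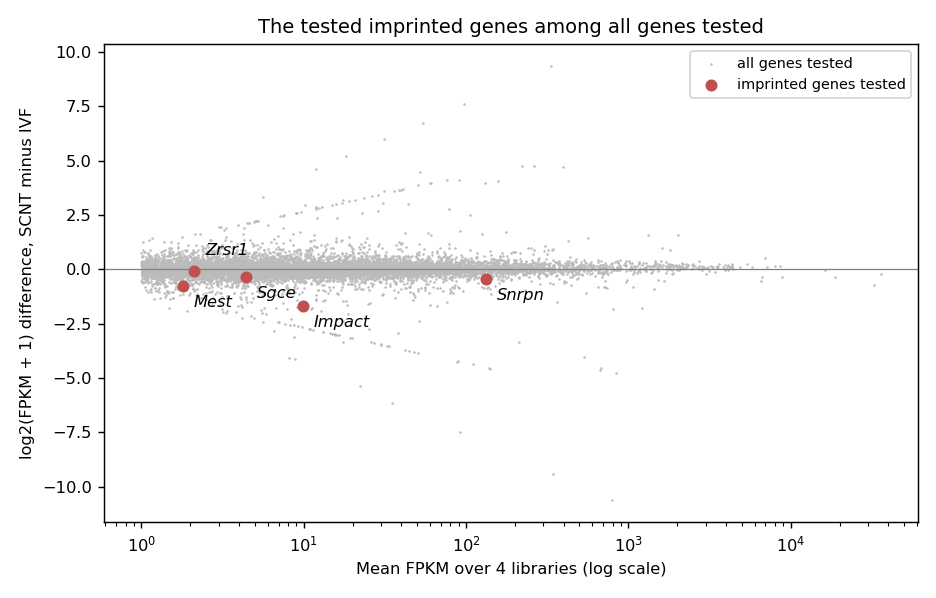
Difference on the log2(FPKM + 1) scale, SCNT minus IVF, against the mean FPKM over 4 libraries (log scale), with the 5 imprinted genes tested in red and all 11039 genes tested in grey. Impact at -1.67 lies clear of most genes of its level, Mest at -0.75 lies at the lower edge, and Snrpn, Sgce and Zrsr1 lie within or near the grey band.

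Other genes known as paternally expressed in the mouse were read from a list of 19. Of these, 18 were in the files and 7 reached the level for testing, and none passed in either direction with limma, nor did any have an unadjusted p under 0.05. Both SCNT libraries were above both IVF libraries in 4 of the 18 (Igf2, Dio3, Mkrn3 and Peg13) and under them in 2 (Inpp5f and Zdbf2), near the 16.7% and 14.6% of genes above 0 that did so. These 6 are named for that count, after their values were seen. Zdbf2, a gene named for the DBF4-type zinc finger of its product, had 0.103 and 0.297 FPKM in SCNT and 0.604 and 0.978 FPKM in IVF, a ratio of 0.253, close to that of Impact at 0.274. Inpp5f, a phosphoinositide phosphatase gene, had 5.04 and 4.76 FPKM in SCNT and 6.64 and 5.30 FPKM in IVF. The growth factor gene Igf2 had 2.18 and 1.73 FPKM in SCNT and 1.61 and 1.35 FPKM in IVF. Dio3, which encodes an enzyme that inactivates thyroid hormone, had 0.837 and 1.57 FPKM in SCNT and 0.544 and 0.378 FPKM in IVF. The retrogene Mcts2, the most abundant of this list, had 48.0 and 63.1 FPKM in SCNT and 36.3 and 50.2 FPKM in IVF, and the antisense RNA gene Airn had 1.62 and 2.74 FPKM in SCNT and 0.620 and 1.72 FPKM in IVF; both overlapped, and Airn reads cannot be told from those of Igf2r unless strand was used. The median difference was 0.17 over the 7 tested genes.

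**Figure D4:**
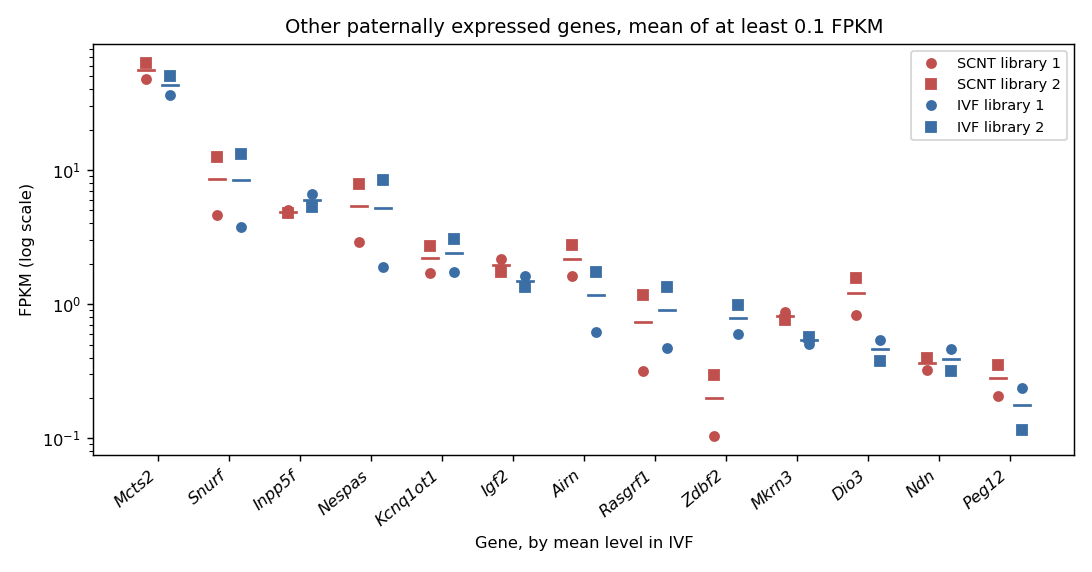
FPKM (log scale) of 13 other paternally expressed genes with a mean of at least 0.1 FPKM, SCNT in red left of IVF in blue, with circles for library 1, squares for library 2 and bars for group means. Zdbf2 was lower in SCNT, Dio3 and Mkrn3 were higher, and Snurf, Nespas and Rasgrf1 differed more by library number than by group.

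Genes that keep or remove methylation at imprints were present in both groups. Of 13 listed, 12 were tested, and none passed with limma or had an unadjusted p under 0.05; their median difference was -0.02. Zfp57 had 27.0 and 21.3 FPKM in SCNT and 29.2 and 24.9 FPKM in IVF, which overlap. Zfp445, which encodes a second zinc finger protein that protects imprints, had 4.85 and 4.25 FPKM in SCNT and 5.51 and 5.85 FPKM in IVF. Both SCNT values were lower there, with a difference of -0.27 ± 0.18 (SE, limma adjusted p = 0.907). Trim28 had 291 and 184 FPKM in SCNT and 298 and 166 FPKM in IVF, following library number. Dnmt1 had 16.4 and 15.7 FPKM in SCNT and 14.2 and 13.5 FPKM in IVF. Of the dioxygenase genes, whose products oxidise methylcytosine, Tet1 had 8.62 and 9.25 FPKM in SCNT and 6.91 and 8.30 FPKM in IVF. Tet2 had 18.3 and 15.9 FPKM in SCNT and 19.9 and 23.7 FPKM in IVF. The limma adjusted p was 0.986 for Tet1 and 0.891 for Tet2. Tet3, too low to be tested, had 0.935 and 0.637 FPKM in SCNT and 1.07 and 1.10 FPKM in IVF. Without overlap, 2 of the 13 were higher (Dnmt1 and Tet1) and 3 lower (Zfp445, Tet2 and Tet3). Of genes above 0, 16.7% were higher and 14.6% lower in that way.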

How the data were processed

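Embryos were lysed without RNA isolation, and per the labels' protocols cDNA was made and amplified with the SMARTer Ultra Low Input kit, sheared, and turned into libraries with a NEBNext Ultra DNA kit. Such amplification makes low genes noisy. The submitters' processing notes list TopHat2 2.0.14, Bowtie2 2.1.0, Cufflinks 2.2.1 and the mm9 build. The deposited values are read as FPKM, inferred from those tools and the values. Annotation, filters, strand and scaling between libraries are not stated, and depth is unknown.

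Samples were grouped by title. Genes with a mean of at least 1 FPKM (11039) were tested by limma 3.58.1 (R 4.3.3) on log2(FPKM + 1), with a mean-variance trend and no covariate, and p-values adjusted by Benjamini-Hochberg. The code was tested on simulated data. Pseudocount, filter, trend, prior, scaling, replicate block and each library were varied. The 10 genes and the lists were chosen with earlier results of these data known. All 10 genes are named, with the genes of smallest unadjusted p from other lists (up to 4 each), partners and neighbours of the 10 genes, and the 5 genes most like Impact. Outside that rule, Zim3, Trim28, Zfp57, Asns, Sesn2, Ppp1r15a, marker genes and genes named for a small count were picked after their values were seen. Eif2ak4 and Gcn1l1 are named as pathway partners of Impact. Neighbours come from GENCODE M21 and promoter windows from RefSeq. Both are of GRCm38, not the build of the files, and no sequence of Impact is shown.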

Additional observations from a re-analysis of the deposited data

How the results depend on the processing

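None of the 10 genes passed under any of the 14 alternatives that tested it, and Impact was lower in SCNT under each, from -1.93 to -1.15; the adjusted p of Impact was lowest with the replicate number as a block (0.0671). The number of genes called over the whole table was 14, 6 with short RNA genes left out and the rest rescaled, and 45 to 53 when 1 library was left out. Calls without a library rest on a lone sample assumed to vary like the other group. The median over the 5 genes tested with all libraries was -0.42, -1.05 with the filter at 5 FPKM, where only Impact and Snrpn were left, and between -0.85 and -0.25 with 1 library left out. The number of genes lower in SCNT without overlap was 7 and became at most 9, since 1 library left out eases that condition, and Nnat was the 1 gene that was higher each time. Left-out libraries moved Sgce between -0.85 and 0.18 and Zrsr1 between -0.19 and 0.033. Peg10 reached the level for testing without SCNT library 1. Its difference there was -0.08, against -0.32 with all libraries and no filter. With a pseudocount of 0.1 and no filter, a setting added after seeing the data, the differences were -0.74 for Peg3, -1.03 for Usp29, -0.69 for Peg10, -0.90 for Plagl1 and 0.88 for Nnat, none past the threshold (limma adjusted p of 0.660 to 0.896). The robust prior called 21 genes and the replicate block 20. Libraries of the same number deviated together (r = 0.309 across genes), but with 2 pairs the numbers cannot be shown to pair the libraries. What depth limits cannot be quantified here.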
